A study of Mus musculus with 4 samples.

Results

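Collagens are secreted matrix proteins built from chains that wind into triple helices, and each chain is encoded by a gene of its own. All gene names of the pattern Col, number, a, number were taken from the 4 expression tables, which gave 42 collagen chain genes among 22072 gene names. The tissue was molar mesenchyme of mouse embryos at embryonic day 14, isolated by laser capture from sections of frozen heads. The groups were Msx1+/- (called control in the labels) and Msx1-/- (mutant), each as upper (maxillary) and lower (mandibular) molars, with 1 library in each group. All groups carry a mixed background, the libraries shared a sequencing lane, and no other allele or treatment is named. RNA came from 3 pooled control and mutant pairs, so a library is an average over embryos, and the labels do not say which Msx1 allele was used or whether the jaws share embryos. The title of the series names its reference tissue wild type, which is at odds with the genotype label Msx1+/-. The label is followed here, and by it the controls carry a single functional Msx1 copy.

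In fibrillar collagens a long unbroken helix assembles into cross-striated fibrils, as in skin, bone and dentin. Type IV chains form the sheet of basement membranes, type VIII and type X chains form hexagonal networks, and type VI chains form beaded filaments near cells. Fibril-associated collagens, such as types IX, XII and XIV, lie on the surface of fibrils, and transmembrane collagens carry their helix outside the cell. In the tooth germ, types I and III are the abundant collagens of the mesenchyme, while type IV lies under the tooth epithelium and around vessels. Tooth development requires Msx1, whose product is a homeodomain protein that binds DNA in dental mesenchyme cells.

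Values are FPKM, which counts fragments per kilobase of a transcript scaled by the mapped total, so levels can be compared between genes. Every run of 4 values lists the controls first (upper, then lower molar) and then the mutants (upper, then lower). Differences are on the scale log2(FPKM + 1), and a gene was called higher or lower, or counted, where that difference was at least 1. No group has a second library, so no difference within a jaw has a replicate check, and the differences are described without a test. A fit that takes the jaws as replicates stands among the alternatives in the closing section. Read sequence over annotated transcripts came to between 264 and 410 megabases a library, and at 1 FPKM a transcript base was read between 0.812 and 1.09 times on average. The mutant lower library stood lower over most genes: over the 10536 genes tested the mutant minus control difference had a median of -0.03 in upper molars, against -0.39 in lower ones. Values after rescaling by median of ratios, which removes this shift, are therefore given where they change a call. Msx1 was at 169.6, 184, 126 and 85.9 FPKM, and since the allele is not named these levels do not check the labels. All 13 listed transcription factors of the dental mesenchyme reached a mean of 1 FPKM.

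Of the 42 collagen genes, 23 reached a mean of 1 FPKM over the libraries and were tested, and the other 19 lay below. In mutant against control molars, 2 genes were higher in both jaws (Col8a1 and Col12a1) and 1 was lower in both (Col13a1). Over all genes tested, 0.399% were higher and 1.59% lower in both jaws. The upper molars held 2 higher and 1 lower collagen gene, against 1.07% and 3.26% of all genes. The lower molars held 3 higher and 4 lower collagen genes, against 0.864% and 9.43% of all genes. The lower molars added Col2a1 on the higher side and Col6a1, Col6a2 and Col23a1 on the lower side. After rescaling, the both-jaw calls were Col8a1 and Col12a1 alone (all genes: 0.645% higher and 1.21% lower). In lower molars 4 were then higher, with Col25a1 added, and 1 lower, Col23a1 (all genes: 2.03% and 3.51%). With the mutant libraries required to lie beyond both controls by at least 1, the same 2 genes were higher and the same 1 lower (all genes: 0.256% and 1.19%). Without the mutant upper library that rule gave 3 higher and 2 lower, adding Col2a1 and Col23a1 (all genes: 0.626% and 6.07%). The 23 genes had a median difference of 0.06 (upper) and -0.11 (lower), the latter 0.30 after rescaling, and over all 42 the medians were 0.07 and 0.02.

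**Figure D1:**
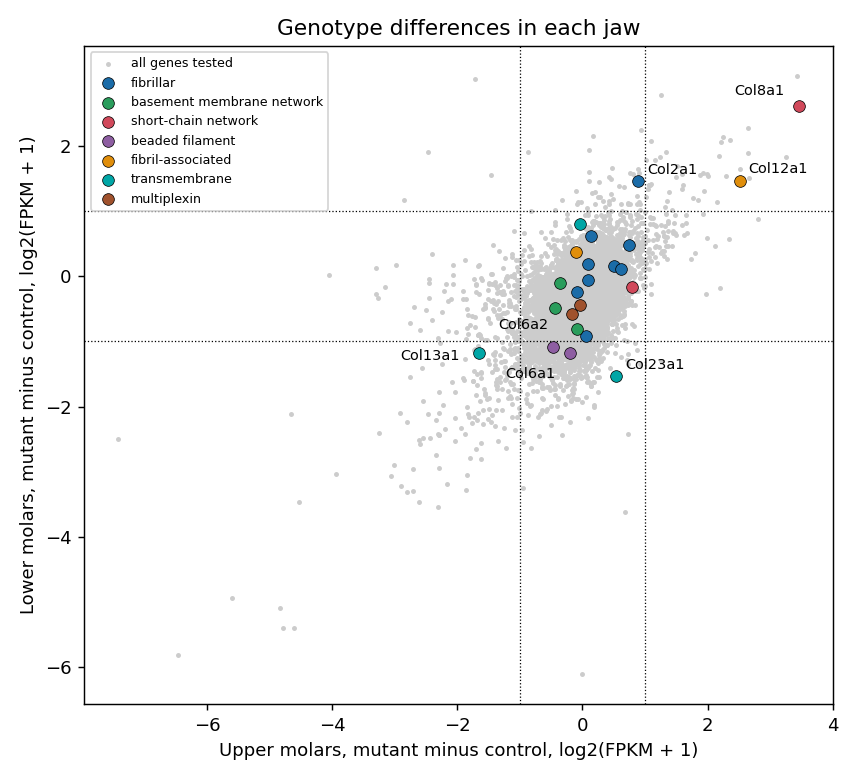
Mutant minus control difference of log2(FPKM + 1) in upper molars (horizontal) and lower molars (vertical) for the 23 tested collagen genes, coloured by class, with all 10536 tested genes in grey; dotted lines mark differences of 1. Col8a1 and Col12a1 lie beyond 1 in both jaws, Col13a1 beyond -1 in both, and Col23a1 differs in sign between the jaws.

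Summed over all 42 genes, collagen FPKM was 678, 838, 892 and 795. These sums were 0.367%, 0.413%, 0.508% and 0.551% of all summed FPKM, shares that do not depend on scaling between libraries, and both mutant shares lay above both control shares. Fibrillar chains held 66.5%, 66.9%, 66.7% and 68.7% of the collagen sum, most of it from Col1a1, Col1a2 and Col3a1, which together made up between 55.2% and 57.7%. Beaded-filament chains held 17.0%, 18.1%, 9.79% and 8.77%, a lower share in both mutant libraries. Fibril-associated chains held 2.91%, 3.38%, 9.22% and 8.67%. Short-chain network genes held 1.15%, 1.47%, 6.37% and 5.94%. Both of these classes held larger shares in both mutant libraries, and most of the FPKM of each there came from a single gene, Col12a1 or Col8a1. Basement membrane chains held 8.39%, 6.43%, 4.83% and 5.43%. These sums and shares leave out Emid2, a further collagen chain gene listed under an older symbol and given in the closing section.

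**Figure D2:**
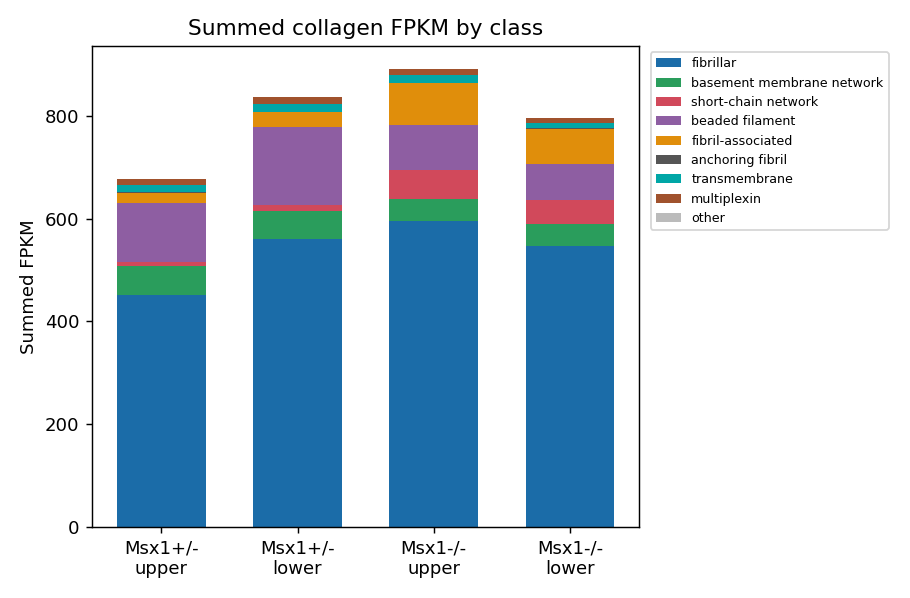
Summed FPKM of the 42 collagen genes in each library, stacked by class, as deposited and without rescaling. Fibrillar chains are the largest block in every library, the short-chain network and fibril-associated blocks are taller in the Msx1-/- libraries, and the beaded-filament block is shorter there.

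The fibrillar chains are led by Col1a1 and Col1a2, which together form type I collagen, the main fibril protein of bone and dentin. Col1a1 (chromosome 11, 94797584 to 94813170, mm9) was at 144, 181, 204 and 201 FPKM. Col1a2 (chromosome 6, 4455697 to 4491543) was at 96.1, 117, 162 and 164 FPKM. Both mutant libraries lay above both control libraries for either gene, but no difference reached 1. The share of all genes that separate the genotypes without such a gap was not counted, here or for Col2a1, Col6a1 and Col6a2 below. Col1a1 differed by 0.50 and 0.15 and Col1a2 by 0.74 and 0.48 in upper and lower molars. Rescaled by median of ratios, these were 0.51 and 0.57 for Col1a1 and 0.75 and 0.90 for Col1a2. Col3a1, which encodes the sole chain of type III collagen, a partner of type I in soft tissue, was at 134, 179.6, 140.3 and 94.9 FPKM. It was highest in the control lower and lowest in the mutant lower library, with differences of 0.06 and -0.91 and, rescaled, 0.07 and -0.49.

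Types V and XI are minor fibrillar collagens that set fibril diameter from within the fibril. Col5a1 was at 34.4, 34.5, 32.5 and 29.0 FPKM and Col5a2 at 19.1, 23.6, 29.7 and 25.5 FPKM. Col11a1 was at 16.9, 18.8, 18.0 and 17.9 FPKM, the narrowest spread among the 23 genes. None of these was counted. Their partner chains were nearly silent, with Col5a3 at no more than 0.262 and Col11a2 at no more than 0.233 FPKM. Col27a1, a fibrillar chain known from cartilage, was at 3.20, 3.52, 3.62 and 5.94 FPKM and was highest in the mutant lower library. Its difference of 0.62 in lower molars was 0.97 after median-of-ratios rescaling and passed 1 with the other rescalings. Col24a1 was at 0.870, 0.964, 0.985 and 1.24 FPKM, near the limit of 1 FPKM.

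Col2a1 (chromosome 15, 97806033 to 97835155), the chain of type II collagen and a main product of cartilage, was at 2.03, 1.98, 4.59 and 7.20 FPKM. Both mutant libraries lay above both controls. The difference was 0.89 in upper molars, short of 1, and 1.46 in lower molars, where it was counted. The tables split Col2a1 into transcript entries that differ by 204 bases in length. The shorter entry held most of the signal (2.03, 1.32, 4.33 and 5.99 FPKM) and the longer less (0.00000521, 0.658, 0.262 and 1.21 FPKM). Other cartilage collagens stayed low, with Col9a1 at no more than 0.257, Col9a2 at 0.461, 0.537, 1.58 and 1.02 FPKM, Col9a3 at 0.685, 0.529, 0.780 and 1.29 FPKM and Col10a1, a marker of enlarged cartilage cells, at no more than 0.309 FPKM. Of 13 non-collagen cartilage markers in the tables, 4 were tested and 1 was higher in both jaws (all genes: 0.399%). It was the link protein gene Hapln1 (1.30, 1.70, 3.93 and 10.3 FPKM). The other tested markers were not counted: the cartilage regulator Sox9 was at 3.12, 1.77, 5.28 and 3.21 FPKM, with differences of 0.61 and 0.61, Sox6 was at 2.64, 1.05, 2.86 and 1.14 FPKM and Pth1r at 5.14, 7.53, 9.36 and 9.14 FPKM. Summed FPKM of the 13 was 14.6, 13.2, 23.9 and 24.4, higher in both mutant libraries. Of the 9 untested, Lect1 was at 0.0448, 0.197, 1.45 and 0.299 FPKM, highest in the mutant upper library. Sox5 (1.14, 0.282, 0.441 and 0.0712 FPKM) and Matn4 (1.18, 0.400, 0.421 and 0 FPKM) were highest in the control upper library. Acan, Chad and Ihh stayed below 0.2 FPKM, and Matn1, Matn3 and Epyc were each at 0 in 3 of 4 libraries. The part of cartilage cells in the Col2a1 levels was not tested.

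**Figure D3:**
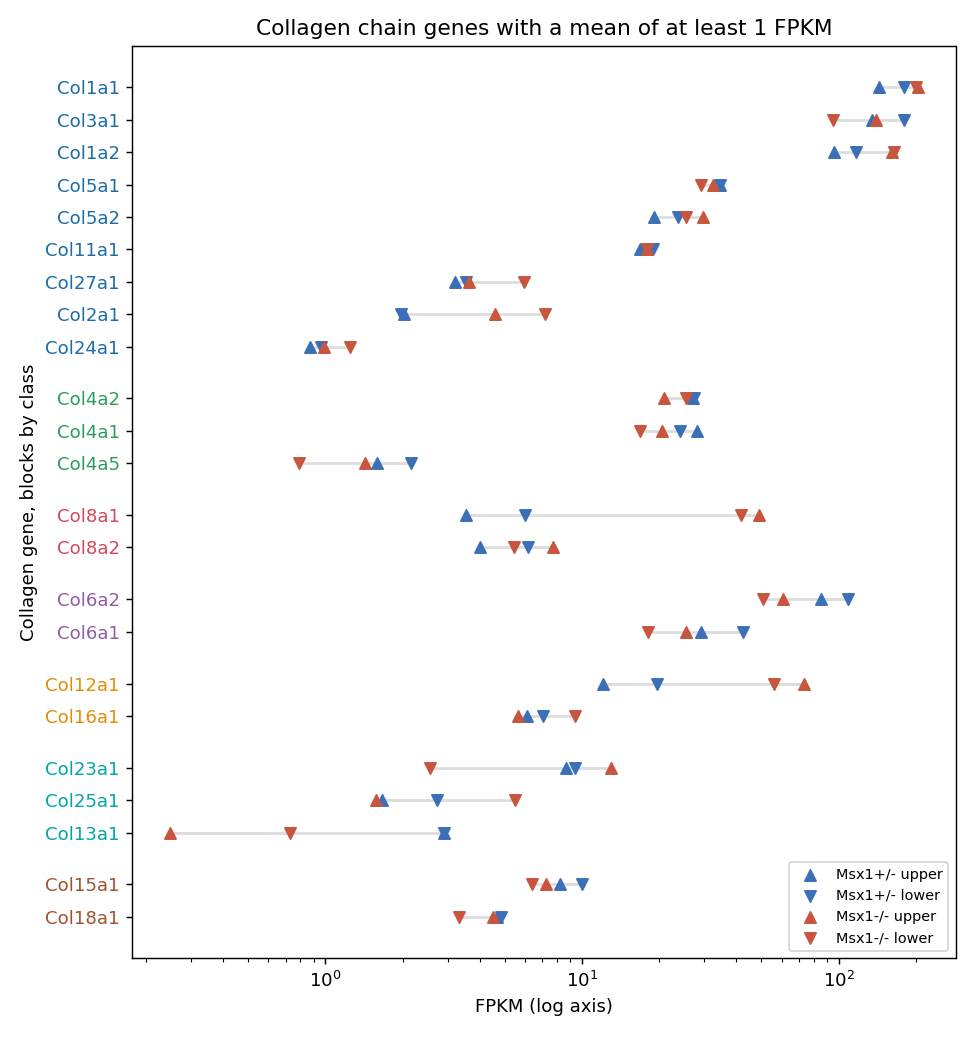
FPKM (log axis) of the 23 tested collagen genes, in blocks by class, with 1 point per library; colour marks genotype and the triangle's direction marks the jaw. Levels run from 0.247 FPKM for Col13a1 in the mutant upper library to 204 FPKM for Col1a1, and the widest gaps between the colours are in Col8a1, Col12a1 and Col13a1.

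Col8a1 showed the widest genotype difference of the family. It encodes the alpha1 chain of type VIII collagen, a short-chain network collagen known from the matrix around vessels and from the cornea. Col8a1 (chromosome 16, 57624369 to 57754850) was at 3.53, 5.98, 48.9 and 41.5 FPKM. The control libraries were low and both mutant libraries were high, with no overlap. The level in the mutant was 13.8-fold that of the control in upper and 6.94-fold in lower molars, and the log2 differences were 3.46 and 2.61. These ranked 1 and 4 among the 10536 genes tested, counted from the highest. Rescaled, the differences were 3.45 and 3.00. Col8a2, which encodes the other type VIII chain, was at 4.02, 6.19, 7.72 and 5.43 FPKM. Its differences were 0.80 and -0.16, and it was not counted. The ratio of Col8a1 to Col8a2 FPKM within a library was 0.879, 0.967, 6.33 and 7.64, near 1 in both controls and higher in both mutants. These are ratios of RNA levels and do not give the proportion of the chains in the protein.

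The start-site windows of the type VIII genes are shown because the chains of 1 protein differed in how they moved. Each runs from 250 bases before to 50 bases after the start of transcription, on the strand of the gene (RefSeq, GRCm38.p6), and capitals mark matches to the 6 motifs named further on, those on the other strand as their reverse complement.
Col8a1 chr16:57754688-57754987 minus strand: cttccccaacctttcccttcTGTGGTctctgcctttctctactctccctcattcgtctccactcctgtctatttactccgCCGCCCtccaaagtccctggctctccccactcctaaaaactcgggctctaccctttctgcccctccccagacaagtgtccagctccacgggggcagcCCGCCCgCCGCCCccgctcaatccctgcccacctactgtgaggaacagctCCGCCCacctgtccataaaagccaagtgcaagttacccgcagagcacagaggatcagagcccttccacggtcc
Col8a2 chr4:126286544-126286843 plus strand: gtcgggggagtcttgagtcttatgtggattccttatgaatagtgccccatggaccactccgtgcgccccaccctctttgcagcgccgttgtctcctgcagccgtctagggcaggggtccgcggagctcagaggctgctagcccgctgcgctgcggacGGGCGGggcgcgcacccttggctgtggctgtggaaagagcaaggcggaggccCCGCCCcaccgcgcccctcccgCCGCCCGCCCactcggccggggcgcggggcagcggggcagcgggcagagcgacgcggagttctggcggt
Both windows hold 4 matches to GGGCGG, the GC box, on either strand. The Col8a1 window also holds TGTGGT, the core letters of Runx sites, which the Col8a2 window lacks. Neither window holds a match to the other 4 motifs.

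Basement membrane chains were measured mainly through Col4a1 and Col4a2, the chains of the ubiquitous type IV network. Col4a1 was at 28.0, 24.2, 20.5 and 16.9 FPKM and Col4a2 at 27.0, 27.4, 20.9 and 25.4 FPKM, and neither was counted. Their ratio was 1.04, 0.882, 0.979 and 0.664, lowest in the mutant lower library. Col4a5, a chain of more specialised basement membranes, was at 1.60, 2.15, 1.43 and 0.787 FPKM. Its partner Col4a6 reached no more than 0.228 FPKM, and Col4a3 and Col4a4, known from kidney filters, no more than 0.0177 and 0.0203. Endothelial markers, which mark cells that also make Col4a1 and Col4a2, summed to 92.4, 85.2, 70.6 and 66.3 FPKM as deposited, without rescaling. Of 13 tested, 0 were counted in both jaws and 1 was lower in upper molars, Egfl7 (22.6, 11.5, 9.66 and 9.63 FPKM). Their median differences were -0.18 in upper and -0.34 in lower molars, where all genes had -0.03 and -0.39. The part of vessel cells in the Col4a1 and Col4a2 levels was not tested. In tissue samples fewer cells of a type and less RNA per cell cannot be told apart.

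Col4a1 and Col4a2 are transcribed away from each other from a shared start region, and in the mm9 tables the genes lie 2 bases apart. Their windows overlap by 78 bases and are shown because the genes share this start region.
Col4a1 chr8:11312777-11313076 minus strand: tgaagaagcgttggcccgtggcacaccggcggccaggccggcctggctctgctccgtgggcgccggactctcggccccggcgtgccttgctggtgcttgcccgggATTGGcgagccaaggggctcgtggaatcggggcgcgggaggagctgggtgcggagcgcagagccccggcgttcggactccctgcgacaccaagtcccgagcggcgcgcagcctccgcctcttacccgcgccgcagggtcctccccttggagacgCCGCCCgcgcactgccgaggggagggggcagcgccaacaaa
Col4a2 chr8:11312555-11312854 plus strand: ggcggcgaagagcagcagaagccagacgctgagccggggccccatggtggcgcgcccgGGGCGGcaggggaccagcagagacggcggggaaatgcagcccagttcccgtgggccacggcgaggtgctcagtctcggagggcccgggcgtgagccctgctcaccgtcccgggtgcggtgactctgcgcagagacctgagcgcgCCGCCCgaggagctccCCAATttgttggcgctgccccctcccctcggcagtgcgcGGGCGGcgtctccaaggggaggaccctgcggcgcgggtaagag
The genotype differences of the pair were -0.43 and -0.36 in upper and -0.49 and -0.11 in lower molars. Rescaled by median of ratios, they were -0.43 and -0.35 in upper and -0.09 and 0.30 in lower molars, so Col4a2 changed sign there. The windows of both hold CCAAT, and GGGCGG is matched 1 time in that of Col4a1 and 3 times in that of Col4a2, with 1 site lying in the overlap and shared. Col3a1 and Col5a2, 24624 bases apart on chromosome 1, differed by 0.06 and 0.61 in upper and -0.91 and 0.10 in lower molars. Col6a1 and Col6a2, 85387 bases apart on chromosome 10, differed by -0.20 and -0.47 in upper and -1.18 and -1.09 in lower molars. Of the 8 pairs of collagen genes within 100000 bases of each other, these 3 had both genes tested. The type VI pair differed least from each other in lower molars and the type IV pair in upper molars.

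Type VI collagen forms beaded filaments from chains of 3 kinds, of which Col6a1 and Col6a2 were measured. Col6a3 was not among the 42 names that the pattern found, so the beaded-filament sums and shares do not include it. Col6a2 was at 85.0, 109, 61.0 and 50.7 FPKM and Col6a1 at 29.2, 42.3, 25.3 and 18.1 FPKM. Both control libraries lay above both mutant libraries for each gene. The differences passed -1 in lower molars only, and after rescaling they were -0.78 for Col6a1 and -0.67 for Col6a2, so that neither was counted. The ratio of Col6a1 to Col6a2 was 0.343, 0.387, 0.416 and 0.356, a 1.21-fold spread. The chains Col6a4 and Col6a5 reached no more than 0.0526 and 0.0231 FPKM, and Col6a6 was at 0.641, 0.312, 0.968 and 0.913 FPKM. Of 10 markers of pericytes and smooth muscle, 5 were tested and 0 counted in both jaws. In lower molars 3 were lower (Rgs5, Tagln and Mcam), against 9.43% of all genes. Rgs5 alone was still counted after rescaling, at -1.61 (all genes: 3.51%). In upper molars the smooth muscle actin gene Acta2 was higher, at 2.53, 4.18, 15.2 and 3.57 FPKM. The markers summed to 74.9, 83.2, 51.3 and 28.3 FPKM, and to 37.0, 40.5, 34.4 and 18.6 FPKM without Pdgfrb, whose estimate failed in the mutant lower library. Their part in the type VI levels was not tested.

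Of the 9 fibril-associated genes 2 were tested, Col16a1 and Col12a1, and the only one counted was Col12a1. It encodes the chain of type XII collagen, a large protein that binds type I fibrils in dense connective tissue such as tendon and periosteum. Col12a1 (chromosome 9, 79446798 to 79566485) was at 12.0, 19.7, 73.3 and 56.1 FPKM. Both mutant libraries lay far above both controls, by 6.09-fold in upper and 2.85-fold in lower molars, and the log2 differences were 2.51 and 1.47. Rescaled, they were 2.51 and 1.88. Over its fibril partner, the ratio of Col12a1 to Col1a1 was 0.0839, 0.109, 0.359 and 0.280. Col14a1, the closest relative of Col12a1 and likewise a fibril surface collagen, reached only 0.0656, 0.297, 0.327 and 0.758 FPKM. Col16a1, found on fibrils of many tissues, stood at 6.12, 7.08, 5.65 and 9.43 FPKM and was not counted either way. Col19a1, Col20a1 and Col22a1 reached no more than 0.143, 0.216 and 0.0825 FPKM. Below the limit of 1 FPKM, Col14a1 in the mutant was 4.98-fold the control in upper and 2.55-fold in lower molars. For Col9a2 these values were 3.43-fold and 1.90-fold. Col9a3, Col19a1 and Col20a1 were higher in both jaws too, while Col9a1 and Col22a1 differed in direction between the jaws.

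Ratios between chains made in the same library do not depend on scaling between libraries. Col1a1 to Col1a2, the partners in type I collagen, stood at 1.49, 1.54, 1.26 and 1.23. Col5a1 to Col5a2 stood at 1.80, 1.46, 1.09 and 1.14. Col3a1 to Col1a1 stood at 0.936, 0.995, 0.688 and 0.473, and Col5a1 to Col1a1 at 0.240, 0.191, 0.159 and 0.145. In each of these ratios both mutant libraries lay below both controls, but all except Col5a1 to Col5a2 include Col1a1. How often other gene pairs separate in this way was not counted. The genotypes overlapped in Col4a1 to Col4a2 and in Col6a1 to Col6a2. They also overlapped in Col4a5 to Col4a1, at 0.0569, 0.0889 and 0.0700, with Col4a5 below 1 FPKM in the mutant lower library. The spread from the lowest to the highest library was 1.26-fold for Col1a1 to Col1a2 and 2.1-fold for Col3a1 to Col1a1, against 8.7-fold for Col8a1 to Col8a2 and 4.29-fold for Col12a1 to Col1a1.

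**Figure D4:**
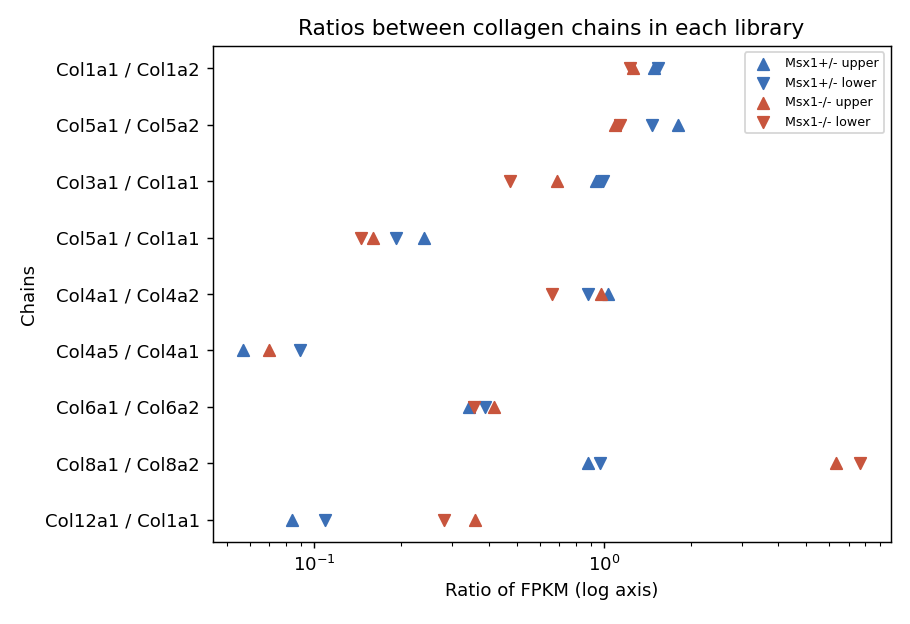
Ratio of FPKM between pairs of collagen chains (log axis) in each library, for pairs with both chains at 1 FPKM or more in at least 3 libraries; colour marks genotype and the triangle's direction marks the jaw. Col8a1 to Col8a2 and Col12a1 to Col1a1 are higher in both Msx1-/- libraries, and Col3a1 to Col1a1 is lower there.

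The transmembrane chains each had a pattern of their own. Col13a1, found at cell-matrix contacts and at neuromuscular junctions, was the single gene lower in both jaws among the 42 of the name pattern. Col13a1 (chromosome 10, 61301246 to 61441856) was at 2.90, 2.89, 0.247 and 0.728 FPKM. The control libraries were nearly equal and both mutant libraries were lower. The differences were -1.65 and -1.17, and rescaled -1.61 and -0.94, so the lower-molar call was lost by rescaling. Coverage over its transcript of 2900 bases came to 779 read bases in the mutant upper and 1950.2 in the mutant lower library, against 8799.7 and 6813 in the controls, so the mutant levels rest on little sequence.
Col13a1 chr10:61979059-61979358 minus strand: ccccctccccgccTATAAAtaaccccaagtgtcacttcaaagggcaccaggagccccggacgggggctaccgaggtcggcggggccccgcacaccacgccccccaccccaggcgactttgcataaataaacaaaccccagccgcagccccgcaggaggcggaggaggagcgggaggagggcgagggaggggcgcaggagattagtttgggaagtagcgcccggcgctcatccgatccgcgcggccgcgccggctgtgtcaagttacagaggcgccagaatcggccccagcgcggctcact
The Col13a1 window, shown as the counterpart to that of Col8a1, holds 1 match, to TATAAA at 237 bases before the start, and none to GGGCGG.

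Col23a1, a transmembrane chain shed from cell surfaces, was at 8.69, 9.36, 13.0 and 2.57 FPKM. The mutant lower library was far below the rest and the mutant upper library was the highest. The mutant minus control values were 0.53 (upper) and -1.54 (lower), and rescaled 0.54 and -1.20. Col25a1, a chain known from neurons, was at 1.66, 2.73, 1.58 and 5.47 FPKM and was highest in the mutant lower library. Its difference in lower molars was 0.79 as deposited and 1.14 rescaled, where it was counted. Within Col25a1 the shorter transcript entry was at 0.222, 0.769, 0.451 and 2.79 FPKM and the longer, by 617 bases, at 1.44, 1.96, 1.13 and 2.68 FPKM. Neuron and glia markers summed to 13.5, 8.70, 22.1 and 9.25 FPKM, with 2 of 11 tested and 0 counted in both jaws. The neurofilament gene Nefl was at 0.658, 0.829, 0.550 and 3.52 FPKM, like Col25a1 highest in the mutant lower library, with 1.31 in lower molars and -1.54 between the mutant jaws. Gap43, the other tested marker, was highest in the mutant upper library, at 18.5 FPKM, and at 3.91 FPKM in the mutant lower. Their part in Col25a1 was not tested. Col17a1, the hemidesmosome collagen of epithelia, was at 0.184, 0.249, 0.303 and 0.836 FPKM, and epithelial markers summed to 34.1, 54.2, 57.4 and 78.6 FPKM, both highest in the mutant lower library. Of 8 epithelial markers tested, Krt15 was higher in both jaws (all genes: 0.399%), at 0.865, 1.94, 3.15 and 9.09 FPKM. Krt5 (7.18, 17.0, 21.3 and 28.1 FPKM) differed by 1.45 and 0.69, and by 1.45 and 1.10 after rescaling, when it was counted in both jaws too. Perp (0.227, 0.515, 1.34 and 6.13 FPKM) was higher in lower molars. Their part in the levels of Col17a1 was not tested. Col7a1, which anchors epithelia to the matrix below, was at 1.68, 0.690, 0.405 and 0.726 FPKM.

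The multiplexins Col15a1 and Col18a1, basement membrane collagens with cleavable ends, were at 8.22, 9.98, 7.26 and 6.37 FPKM and 4.65, 4.84, 4.49 and 3.31 FPKM, and neither was counted. Col28a1, grouped with no class, reached no more than 0.0347 FPKM. In all, 6 of the 42 genes stayed under 0.1 FPKM in every library and 6 were at 0 in at least 1 library. No member was at 0 throughout.

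Between jaws, upper was compared with lower molars of the same genotype. In controls 0 collagen genes were counted in either direction, against 1.48% of all genes higher and 0.218% lower in upper molars. In mutants Col23a1 was higher in upper molars by 1.98 and Col25a1 was lower by the difference -1.32, against 3.22% and 0.408% of all genes. Rescaled, these were 1.73 and -1.58. The same genes differed by -0.10 and -0.49 in controls. The median jaw difference of the 23 genes was -0.25 in controls, where all genes had -0.08, and 0.16 in mutants, where all genes had 0.27. In controls 20 of the 23 genes had the lower value in upper molars, as did 62.7% of all genes. After rescaling these were 17 of 23 and 50.9%. The genotype difference itself was larger in upper than in lower molars by at least 1 for 2 collagen genes, Col12a1 (1.05) and Col23a1 (2.07), and smaller for 0, against 5.6% and 1.31% of all genes. Rescaled, it was larger for 1, Col23a1, and smaller for 1, Col25a1 (all genes: 1.59% and 2.7%).

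**Figure D5:**
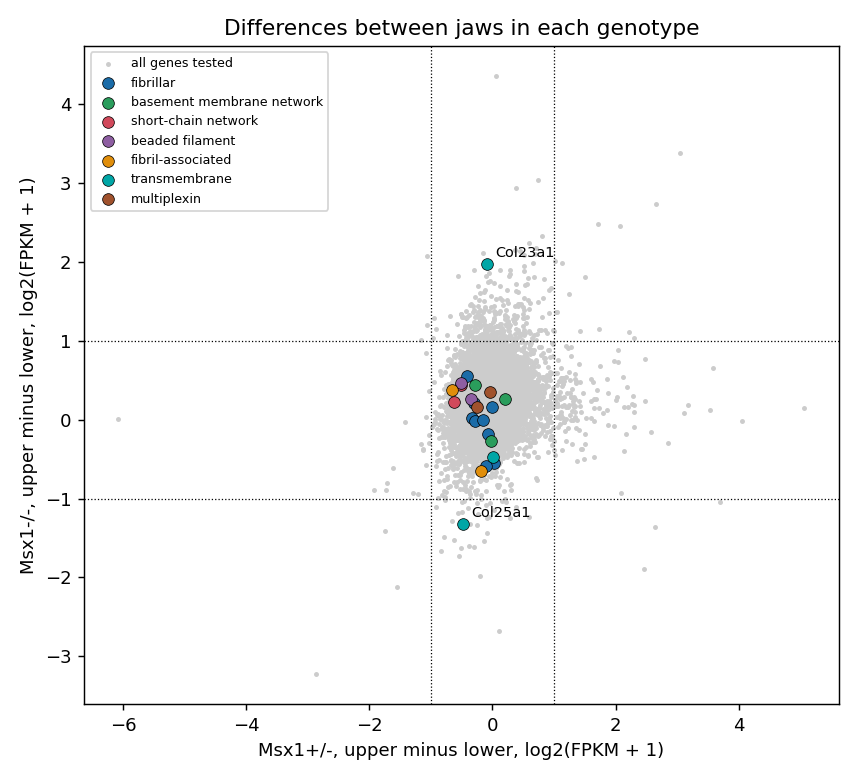
Upper minus lower molar difference of log2(FPKM + 1) in Msx1+/- (horizontal) and Msx1-/- (vertical) libraries for the 23 collagen genes tested, coloured by class, with all tested genes in grey; dotted lines mark differences of 1. Among the collagen genes, only Col23a1 and Col25a1 lie past a line, both in the Msx1-/- comparison.

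The genes that make, process and remove collagen were taken from 6 lists. Of all genes tested, 0.399% were higher and 1.59% lower in both jaws, so a count of 0 in a short list is near that share. For chain modification and folding, which includes the prolyl and lysyl hydroxylases and the collagen chaperone gene Serpinh1, 0 of 19 tested were counted in both jaws. The median differences of that list were 0.19 in upper and -0.34 in lower molars, where all genes had -0.03 and -0.39. Serpinh1 was at 84.6, 121, 97.4 and 86.9 FPKM. For secretion and propeptide removal, 0 of 10 were counted in either jaw (all genes: 4.34% in upper and 10.3% in lower molars). Of 5 cross-linking genes, the lysyl oxidase gene Lox was higher in both jaws, at 2.05, 3.78, 18.4 and 12.6 FPKM. Its relative Loxl1 was lower, at 9.91, 12.6, 4.33 and 5.34 FPKM, with -0.73 in lower molars after rescaling, where it was not counted. Lox had the same order of libraries as Col8a1 and Col12a1, with the mutant upper highest and the control upper lowest, while the chains of type I collagen it cross-links were not counted. A link between Lox and Col8a1 or Col12a1 was not tested.

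Of 18 tested genes for proteins that bind fibrils, Prelp, a leucine-rich proteoglycan that binds collagen, was lower in both jaws, at 16.4, 18.5, 3.96 and 3.37 FPKM, and 0 were higher in both. Among the 6 collagen receptor genes tested, 0 were counted in either jaw (all genes: 4.34% in upper and 10.3% in lower molars). Of 9 breakdown genes, 3 were lower in both jaws and 0 higher (all genes: 1.59% and 0.399%). They were the gelatinase gene Mmp9 (68.6, 66.4, 1.52 and 0.600 FPKM) and the inhibitor genes Timp1 (27.8, 38.8, 3.14 and 3.00 FPKM) and Timp3 (43.1, 24.0, 12.4 and 10.5 FPKM). Timp3 differed by -0.72 in lower molars after rescaling and was not counted there. The protease genes Mmp2 and Mmp14 were at 41.4, 41.7, 47.4 and 42.2 FPKM and 57.9, 58.9, 51.1 and 33.8 FPKM. Osteoblast markers, whose cells make type I collagen, summed to 35.0, 35.9, 51.1 and 33.8 FPKM. Of 6 tested, 2 were higher in both jaws, Ifitm5 (0.681, 1.44, 4.11 and 5.44 FPKM) and the bone sialoprotein gene Ibsp (4.25, 2.40, 19.1 and 9.21 FPKM), and Spp1 was lower (5.70, 6.92, 0.0217 and 0.0213 FPKM). Their part in the type I levels was not tested.

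Collagen genes share a gene structure that the name pattern did not use. In the GRCm38 annotation the 42 genes had a median of 47 coding exons, against 6 over all protein-coding genes. The repeat glycine-X-Y takes 9 bases, and 62.5% of collagen coding exons had a length divisible by 9, against 14.5% over all genes. Exons of exactly 54 bases were 47% of those of fibrillar genes and 0.675% over all genes. Among the genes counted in both jaws the structures differed. Col8a1, like the other short-chain network genes, had 2 coding exons, neither of a length divisible by 9. Col12a1 had 65, of which 21.5% were divisible by 9, and Col13a1 had 40, of which 70% were.

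Start-site windows were at hand for 34 of the 42 genes, as 37 windows of 300 bases, and 6 motifs were searched on both strands among these and 32851 windows of all genes. GGGCGG, the GC box, was in 62.2% of collagen and 35.7% of all windows. CCAAT was in 35.1% and 37.4%, and TATAAA, the TATA box, in 13.5% and 13.6%. TAATTG, letters bound by many homeodomain proteins, was in 8.11% and 8%, with the collagen windows being those of Col11a2, Col17a1 and Col28a1. TGTGGT was in 8.11% and 16.8%, and TGANTCA, the AP-1 motif, which is its own reverse complement, in 2.7% and 7.81%. The median GC content was 60% in collagen windows and 52.7% in all windows, and GGGCGG is itself made of G and C. The 6 motifs do not overlap one another in the printed windows, although matches to GGGCGG overlap each other in that of Col8a2.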

How the data were processed

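RNA was sequenced from 4 libraries of captured molar mesenchyme, with cDNA made by a NuGEN Ovation v2 kit, per the labels' protocols. Reads were aligned to mm9 with Bowtie 0.12.7 and TopHat 1.4.1, per the submitters' processing notes. The deposited tables, per the file headers, give FPKM and a coverage signal for 28107 transcript entries, and the Cufflinks version was not given in the sources used here. Coverage was used only for depth. FPKM was summed per gene name. Genes with a failed estimate (66) and small RNA names (717) were left out, and the 10536 genes whose mean reached 1 FPKM were tested by log2(FPKM + 1) differences of at least 1, with no p-value. Rescaling by median of ratios, other pseudocounts and filters, and a limma 3.58.1 fit over 4 libraries were alternatives, and the scripts were tested on simulated data. The members, lists (211 symbols, of which 198 matched) and motifs were chosen with earlier results of these data known. All members are accounted for. Of the other lists, genes counted in both jaws are named, and any further gene named from them was chosen after their values were seen. Of the skeletal muscle (2 tested), macrophage (10) and erythroid (6) marker lists, 0 genes were counted in both jaws. Of the dental mesenchyme list, 3 of 13 were lower in both jaws (Dlx2, Runx2 and Prrx2), against 1.59% of all genes. Start positions were written 1-based. A protein sequence table was not used here.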

Additional observations from a re-analysis of the deposited data

Results flagged for a closer look

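The genotype difference of Col23a1, a transmembrane collagen, had opposite signs in the jaws. It was 0.53 in upper and -1.54 in lower molars, which is 2.07 more in upper molars, and 1.74 after rescaling by median of ratios. The levels were 8.69, 9.36, 13.0 and 2.57 FPKM in the control upper and lower and the mutant upper and lower molars, so the pattern rests on the mutant lower library. The difference between jaws was not tested, since each group has 1 library.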

How the results depend on the processing

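The higher calls of Col8a1 and Col12a1 in both jaws held under every pseudocount, filter and rescaling run, and a pseudocount of 0.1 added Col2a1 there and in upper molars, for 3 genes (shares of all genes under the same setting: 0.826% and 2.34%). The lower call of Col13a1 in both jaws went to 0 genes with a pseudocount of 5, with a minimum mean of 5 FPKM and with each of the 3 rescalings (all genes: 0.626%, 1.99% and 1.07% to 1.21%), and in upper molars to 0 with a pseudocount of 5 (1.34%) or a minimum mean of 5 FPKM (3.96%). With the genotypes required to be fully separated by at least 1, a rule added after the data were seen, 2 genes were higher and 1 lower. Without 1 library in turn, that rule gave 2 to 3 higher and 1 to 2 lower genes, the larger counts without the mutant upper library, when Col2a1 and Col23a1 joined. In lower molars 5 genes were higher with a common upper quartile (2.59%) or total (2.38%). There, 2 were lower with a pseudocount of 5 (3.04%) and 1 with any rescaling (2.84% to 3.51%). Between mutant jaws, 2 genes were lower in upper molars with a pseudocount of 0.1 (0.826%), and 0 with a pseudocount of 5 (0.0759%) or a minimum mean of 5 FPKM (0.356%). The genotype difference was more positive in upper molars by at least 1 in 2 genes (Col12a1 and Col23a1) as deposited, in 5 with a pseudocount of 0.1 (12.7%), and in 1 with a pseudocount of 5 (1.34%) or any rescaling (1.59% to 1.62%). It was more negative in 0 genes as deposited, in 2 with a pseudocount of 0.1 (1.96%) and in 1 with any rescaling (2.69% to 2.71%). Over single genes and contrasts, 736 of the alternative values kept their side of the limit, 18 no longer passed it and 16 newly passed it, and 0 were reversed. Rescaling by median of ratios moved the lower-molar median of collagen genes from -0.11 to 0.30. In the limma fit, which compares genotypes within jaw, takes the jaws as replicates and has 1 residual degree of freedom, so that its variance comes from all genes together, Col8a1, Col12a1, Col13a1 and Col2a1 had adjusted p-values of 2.1e-15, 8e-06, 4.8e-07 and 0.0016, and the jaws may share embryos. That fit used the values as deposited, without rescaling. The shift of the mutant lower library, a median of -0.39 over all genes in lower molars, therefore enters its genotype term. The fit called 1.19% of all genes higher and 4.37% lower. Leaving out a replicate within a group was not possible, since each has 1 library. At 1 FPKM the mean depth is near 1 read per base, which limits Col13a1, Col24a1 and the 19 genes below the limit.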

Other observations

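A further collagen chain gene is listed in the tables under its older symbol, so the name pattern missed it. Emid2, which RefSeq now names Col26a1, was at 139.7, 136, 58.9 and 44.4 FPKM in the control upper and lower and the mutant upper and lower molars. It was chosen after its values were seen. At these levels it would rank 2, 3, 6 and 6 among the collagen genes of the respective libraries. Between mutant and control it differed by -1.23 (upper) and -1.59 (lower), and by -1.23 and -1.17 after rescaling by median of ratios, so it was lower in both jaws on either scale. With it, summed collagen FPKM would be 818, 974, 951 and 839.8. The class shares given above leave it out. Fibrillar chains, at 451, 561, 595 and 546 FPKM, would then hold a smaller share of the collagen sum in every library. That share would be larger in both mutant libraries than in either control, where without Emid2 it was nearly level.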
